A study of Mus musculus with 6 samples.

Results

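Chemokine receptors are G protein-coupled receptors that steer leukocytes along gradients of small secreted proteins, the chemokines. In myeloid cells each receptor marks a different kind of traffic. CCR2 is known for bringing classical monocytes out of the bone marrow, CX3CR1 for patrolling monocytes and tissue-resident macrophages, CXCR2 for neutrophils, CCR6 for dendritic cells near epithelia and CXCR4 for retention by CXCL12. The 7 genes described here, Ccr1, Ccr2, Ccr6, Cx3cr1, Cxcr2, Cxcr3 and Cxcr4, were taken by name, with every non-control probe that the array files assign to them. These were 9 of 56605 probes. Cx3cr1 and Cxcr4 had 2 probes each and the other genes 1.

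Levels were measured on 6 Agilent 1-colour arrays of phagocytes from the tongue of BALB/c mice whose sublingual mucosa had been painted 2 times with the contact sensitiser FITC. The labels give that mucosa as the tissue, but their treatment protocol speaks of the dorsal tongue. The 3 fractions, with 2 arrays each from independent experiments, were Fr1 (CD11c+ CD206-), Fr2 (CD11c- CD206-, positive for the macrophage antigen that Adgre1 encodes) and Fr3 (CD206hi, positive for the same antigen). CD11c is a dendritic cell integrin and CD206 the macrophage mannose receptor. No unpainted mice were among the samples, and ages, sexes and the number of mice per sort are not given in the sources used here. Levels below are log2 processed intensities with each array's 75th percentile set to 0, so that 1 unit is a factor of 2 (see the plot of receptor probes by array). Different probes bind with different strength, so only levels of the same probe are compared.

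The arrays limit every comparison in the same ways. Spots well above background made up 44.6% to 52.4% per array, and saturation was seen at 0 spots. Both Fr2 arrays lay on a slide of their own and the other 4 arrays on 1 slide, so Fr2 and its slide cannot be told apart. Across the 27867 kept probes, which are not independent, Pearson r between the 2 replicates was 0.866 for Fr1, 0.878 for Fr2 and 0.780 for Fr3. On the second Fr3 array, probes with over 30% T were 0.27 lower in the median than on the first, and the other probes 0.59 higher; in Fr1 these shifts were −0.39 and 0.40. The sort antigens bore out part of the labels: Mrc1, which encodes CD206, was at background in Fr1 and lay at 0.98 and 0.65 in Fr2 and 4.10 and 3.01 in Fr3. Itgax, which encodes CD11c, was at 3.05 and 2.66 in Fr1, 3.10 and 1.53 in Fr2 and 0.52 and 1.29 in Fr3, so the CD11c-negative Fr2 did not stand apart from Fr1. Adgre1, the gene of the third sort antigen, was bright in all fractions, between 4.70 and 6.29. In sorted bulk RNA, fewer cells carrying a receptor and less RNA per cell cannot be told apart.

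Tests covered the probes called well above background on the 2 replicates of 1 fraction or more. This left 7 of the 9 receptor probes and 6 of the 7 genes. Of these, 5 genes, all but Ccr6, were well above background on all 6 arrays, and Ccr6 on 5. No receptor passed limma's test adjusted over all probes (adjusted p under 0.05) in any comparison. That threshold called 0% of probes between Fr1 and Fr3, 0% between Fr1 and Fr2 and 0.00359% between Fr2 and Fr3. The last share is 1 probe, that of Gm2042, named after its values were seen. In simulated data of this size, a true difference of 4 log2 units between Fr1 and Fr3 was recovered at 32% of changed probes and one of 2 units at 0%. The simulation changed 50 of 27867 probes at each size, with normal noise and spreads shuffled over probes. Its rates depend on these settings.

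**Figure D1:**
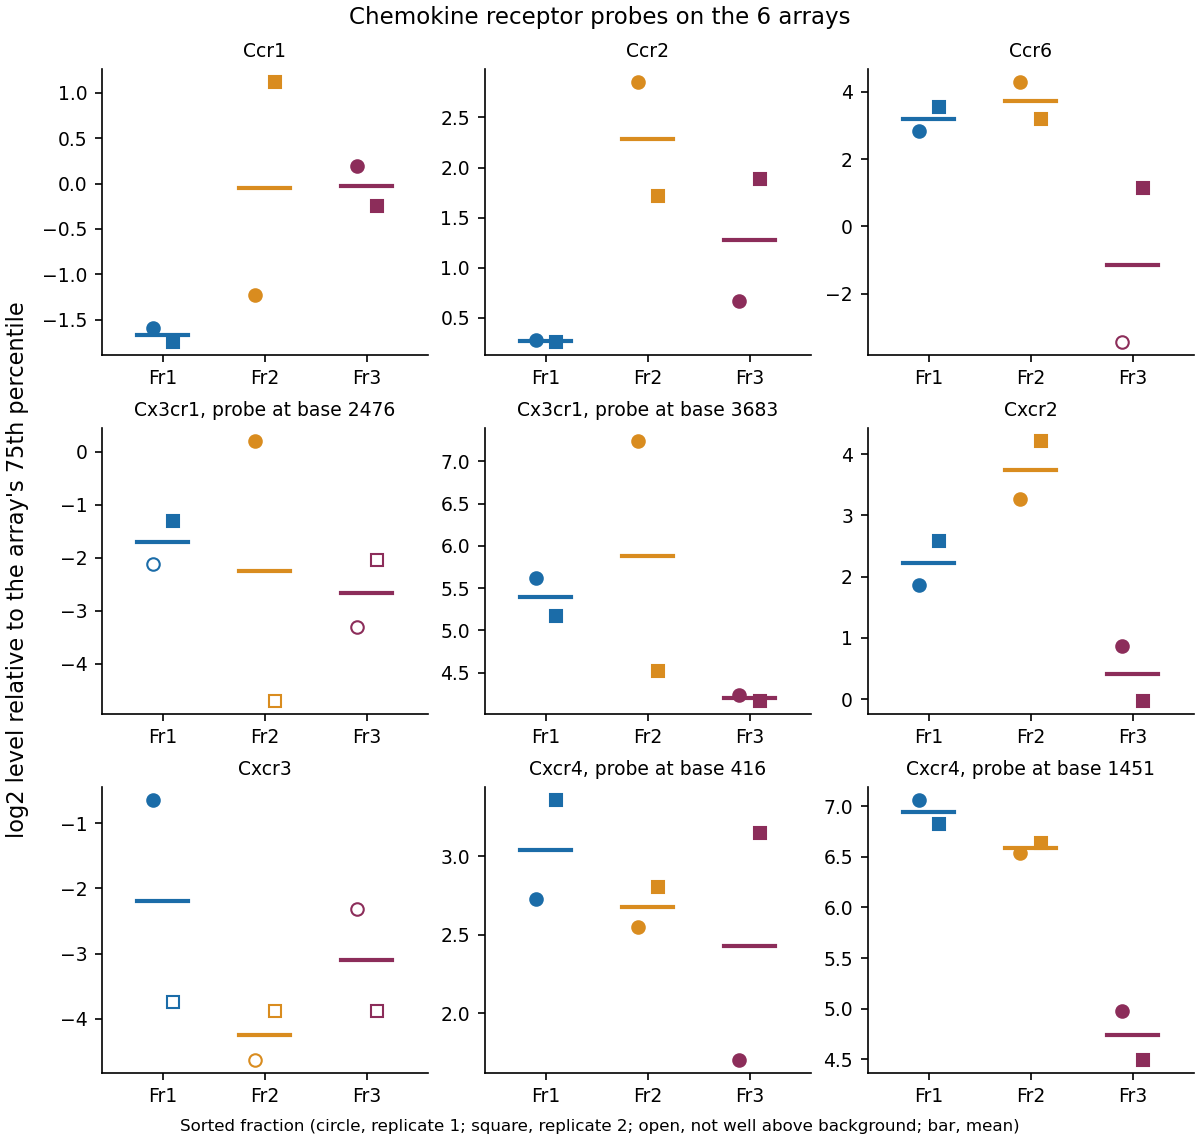
Level of each of the 9 receptor probes on each array (log2, 75th percentile of the array at 0; each panel has its own scale). Circles are replicate 1, squares replicate 2, open symbols are not well above background and bars are means. The Cxcr4 probe at base 1451 lies between 6.54 and 7.06 in Fr1 and Fr2 and at 4.98 and 4.50 in Fr3, whereas the fractions overlap for the probe at base 416.

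Cxcr4 encodes the receptor for CXCL12, the chemokine that holds leukocytes in marrow and tissue. Its brighter probe (chromosome 1, 130485079 to 130485138, minus strand, mm9 as for all positions here) was at 7.06 and 6.83 in Fr1, 6.54 and 6.63 in Fr2 and 4.98 and 4.50 in Fr3. All 4 arrays of the CD206-negative fractions lay above both Fr3 arrays. The level in Fr1 was 4.61 times that in Fr3, a log2 difference of 2.20 ± 0.56 (SE, 95% interval 0.88 to 3.53, limma adjusted p = 0.308). The level in Fr2 was 3.60 times that in Fr3 (log2 difference 1.85 ± 0.56, 95% interval 0.53 to 3.17, adjusted p = 0.346). Fr1 lay just above Fr2, by 0.36 ± 0.56 on the log2 scale, with an interval of −0.97 to 1.68 (adjusted p = 0.873). Over the 19 alternatives tried, the difference between Fr1 and Fr3 ran between 1.41 and 2.45, with adjusted p between 0.0861 and 0.701. Within the shared slide it is 2.20 by construction, since that slide holds all arrays of Fr1 and Fr3.

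The dimmer Cxcr4 probe (chromosome 1, 130486114 to 130486173) did not separate the fractions. It was at 2.72 and 3.36 in Fr1, 2.55 and 2.80 in Fr2 and 1.71 and 3.15 in Fr3. The arrays of all 3 fractions overlapped, and the log2 difference between Fr1 and Fr3 was 0.61 ± 0.69 (95% interval −1.02 to 2.25, adjusted p = 0.829). Without the first Fr3 array it turned to −0.11. The mean of both probes gave a log2 difference of 1.41 between Fr1 and Fr3 (limma adjusted p = 0.510), against 2.20 for the brighter probe alone. Between Fr2 and Fr3 the mean of both probes gave 1.05 (limma adjusted p = 0.568). The letters of the probes are shown to identify the 2 probes that disagreed. On the transcript the files put the dim probe's start at base 416 and the bright probe's at base 1451. The dim probe is printed whole. Of the bright probe, bases 27 to 56 are printed, around a match to the canonical polyadenylation signal AATAAA in capitals.
Cxcr4 probe at base 416 (chr1:130486114-130486173, minus strand): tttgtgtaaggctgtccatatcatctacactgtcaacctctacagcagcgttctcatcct
Cxcr4 probe at base 1451, in part (chr1:130485083-130485112, minus strand): tgtggtaaattgAATAAAgctagccgtgat
The same 6 letters, searched on the probe strand, occur in 2 of the 9 receptor probes and in 9.77% of all 56605 probes of 60 bases. The dim Cxcr4 probe holds 33.3% T and the bright one 23.3%. With a loess correction for T share, Fr1 minus Fr3 was 0.79 for the dim probe and 2.45 for the bright one. The part of base composition, of the position on the transcript or of the AATAAA match in the disagreement was not tested.

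Cxcr2 encodes a receptor for the CXCL1 and CXCL2 family that draws neutrophils into tissue. Its probe (chromosome 1, 74206886 to 74206945) was at 1.86 and 2.58 in Fr1, 3.26 and 4.21 in Fr2 and 0.86 and −0.02 in Fr3. No arrays of different fractions overlapped, and the order was Fr2, Fr1, Fr3. The level in Fr2 was 9.98 times that in Fr3, a log2 difference of 3.32 ± 0.67 (95% interval 1.73 to 4.91), and had the lowest adjusted p among the 7 genes (0.181). Without the first Fr3 array that adjusted p was 0.0608, and over the 18 alternatives it ran between 0.0608 and 0.743. Fr1 lay above Fr3 by 1.80 ± 0.67 (95% interval 0.21 to 3.39, adjusted p = 0.509) and below Fr2, at −1.52 ± 0.67 (Fr1 minus Fr2, 95% interval −3.11 to 0.07, adjusted p = 0.514). With normexp background correction the difference between Fr1 and Fr3 was 0.91.

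Neutrophil genes also lay above Fr3 in Fr2. The 12 of 13 neutrophil markers with a kept probe had a mean log2 level of 0.98 and 1.14 in Fr1, 3.89 and 3.90 in Fr2 and 0.63 and 0.58 in Fr3. Ly6g, a defining marker, was well above background on 1 Fr2 array only. Camp, an antimicrobial granule protein gene, was at −1.86 and −1.26 in Fr1, 3.89 and 4.0 in Fr2 and −1.29 and −1.93 in Fr3, the last not well above background. S100a8, which encodes a calprotectin subunit, was at 0.85 and 1.14 in Fr1, 4.6 and 5.14 in Fr2 and 0.97 and −0.16 in Fr3. None of these 12 markers passed over all probes. At an unadjusted p under 0.05, 9 of the 12 were higher in Fr2 than in Fr3 and 0 lower, against 5.34% of all probes higher and 4.33% lower. The 9 include Ltf, which passed the filter through Fr2 alone, so these counts are a description. The 7 eosinophil markers had a similar spread, with means of 1.05 and 0.72 in Fr1, 3.01 and 3.79 in Fr2 and −0.48 and 0.08 in Fr3. Their part in the Cxcr2 level of Fr2 was not tested.

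**Figure D2:**
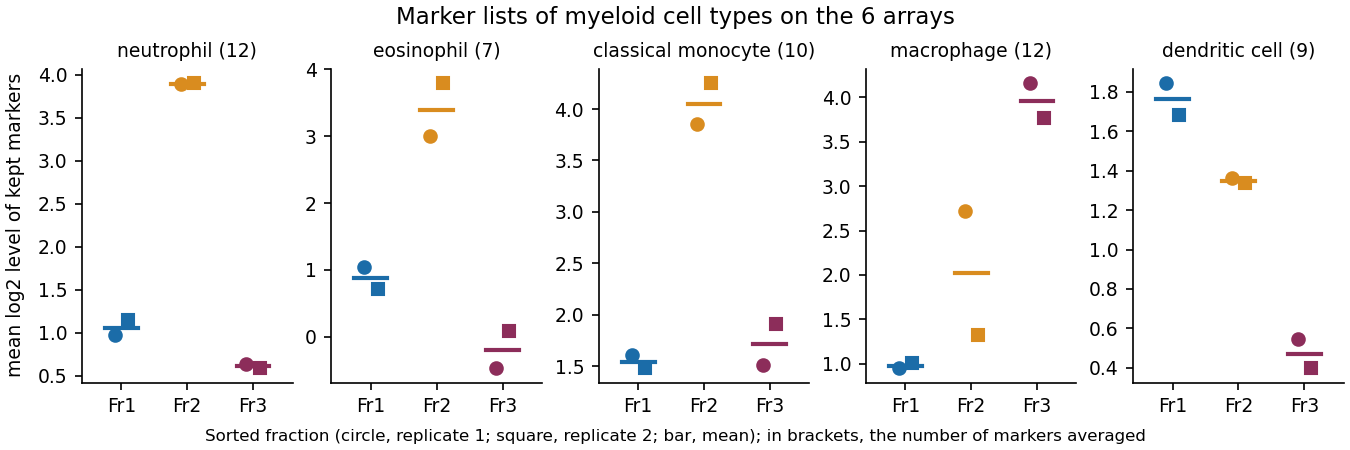
Mean log2 level of the kept markers of 5 myeloid cell types on each array, with the number of markers in brackets (circles, replicate 1; squares, replicate 2; bars, means; each panel has its own scale). The neutrophil markers lie at 3.89 and 3.90 in Fr2, against 1.14 at most on the other arrays, and the macrophage markers split the Fr2 arrays at 2.72 and 1.32. The macrophage and dendritic cell lists include genes of sort antigens.

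Ccr6 encodes the receptor for CCL20, a chemokine of inflamed epithelium. Its probe (chromosome 17, 8449933 to 8449992, 20.0% T) was at 2.83 and 3.55 in Fr1, 4.29 and 3.20 in Fr2 and −3.43 and 1.13 in Fr3. The first Fr3 array was not well above background and the second was, so Fr3 lay below all other arrays but was split by more than any other kept receptor probe. The log2 difference was 4.34 ± 1.39 between Fr1 and Fr3 (95% interval 1.04 to 7.64, adjusted p = 0.421). Between Fr2 and Fr3 it was 4.89 ± 1.39 (95% interval 1.59 to 8.19, adjusted p = 0.314). Both values include the first Fr3 array, whose level was not measured above background, and without it they were 2.06 and 2.61. With normexp they were 1.92 and 2.58. Fr1 and Fr2 overlapped (Fr1 minus Fr2 −0.56 ± 1.39, 95% interval −3.85 to 2.74, adjusted p = 0.926). That value was −0.01 without the first Fr2 array and −1.10 without the second.

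Cells other than phagocytes can carry CCR6. The B cell gene Cd79a was not well above background on any array, nor was the plasma cell gene Jchain. Other genes of that list were bright: Ms4a1, which encodes CD20, lay between 2.59 and 4.81 on all 6 arrays, and Pax5 was at 2.95 and 1.64 in Fr1, 1.08 and 1.87 in Fr2 and 1.67 and −3.38 in Fr3, the last not well above background. The part of B cells in the Ccr6 levels was not tested. The Langerhans cell lectin gene Cd207 was at 0.18 and 0.79 in Fr1, −2.11 and −2.05 in Fr2 and −3.86 and −1.80 in Fr3, where the lower Fr3 array was not well above background. Epcam, the other gene of that list, was at 0.97 and −0.09 in Fr1, 1.25 and −0.31 in Fr2 and 0.17 and −0.07 in Fr3, and its fractions overlapped. The part of Langerhans cells in the Ccr6 levels was not tested. The ligand gene Ccl20 was kept and lay at 1.24 and −0.13 in Fr1, −0.25 and −0.02 in Fr2 and −0.89 and −1.73 in Fr3; it was named for this pairing after its values were seen.

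Ccr2 encodes the receptor for CCL2 and CCL7 that classical monocytes use to reach inflamed tissue. Its probe (chromosome 9, 124022948 to 124023007) was at 0.28 and 0.26 in Fr1, 2.85 and 1.72 in Fr2 and 0.67 and 1.88 in Fr3. Both Fr1 arrays lay below all others, while Fr2 and Fr3 overlapped. The level in Fr2 was 4.03 times that in Fr1 (Fr1 minus Fr2 −2.01 ± 0.70, 95% interval −3.67 to −0.35, adjusted p = 0.445), and −1.13 with normexp background correction. The difference Fr1 minus Fr3 was −1.0 ± 0.70 (95% interval −2.66 to 0.66, adjusted p = 0.678). It was −1.61 without the first Fr3 array and −0.39 without the second. Fr2 minus Fr3 was 1.01 ± 0.70 (95% interval −0.65 to 2.67, adjusted p = 0.625), 0.40 without the first Fr3 array and 1.62 without the second.

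The 10 classical monocyte markers averaged 1.61 and 1.48 in Fr1, 3.85 and 4.25 in Fr2 and 1.51 and 1.91 in Fr3. The close means of Fr1 and Fr3 cover members that lay apart both ways: 3 of the 10 lay wholly above in Fr1 (13.8% of all probes) and 5 wholly below (22.6%). Chil3, a chitinase-like protein gene, was at background in Fr1 and lay at 3.32 and 4.35 in Fr2 and −2.44 and −4.23 in Fr3, the last also at background. Ifitm6, an interferon-induced transmembrane protein gene, was at background in Fr1 too and lay at 1.83 and 0.30 in Fr2 and −1.70 and 0.13 in Fr3. Hp, the haptoglobin gene, was at 2.01 and 2.05 in Fr1, 4.51 and 5.66 in Fr2 and −0.39 and 0.83 in Fr3. Ly6c2, a defining marker, was at 4.99 and 3.19 in Fr1, 5.87 and 5.27 in Fr2 and 0.69 and 1.79 in Fr3. The 3 that lay wholly above Fr3 in Fr1 were Hp, Ly6c2 and Plac8, whereas Ccr2 lay below Fr3 there. None of the 10 passed over all probes. By unadjusted p under 0.05, 0 were higher in Fr1 than in Fr2 and 4 lower, against 3.18% and 6.86% of all probes. The 4 include Chil3, which passed the filter through Fr2 alone, so these counts are a description. The part of classical monocytes in the Ccr2 levels was not tested.

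Ccr1 encodes a receptor for CCL3, CCL5 and CCL9 found on monocytes and granulocytes. Its probe (chromosome 9, 123877790 to 123877849) lies 145098 bases from that of Ccr2, in the receptor gene cluster of that chromosome, and holds 35.0% T. It was at −1.59 and −1.74 in Fr1, −1.22 and 1.11 in Fr2 and 0.20 and −0.25 in Fr3. As with Ccr2, both Fr1 arrays lay below all others. Fr1 minus Fr3 was −1.64 ± 0.84 (95% interval −3.63 to 0.35, adjusted p = 0.604) and Fr1 minus Fr2 was −1.61 ± 0.84 (95% interval −3.60 to 0.38, adjusted p = 0.568). With normexp, which compresses dim signals, the first was −0.38 and the second −0.46. Without the first Fr2 array the second was −2.78, and without the other it was −0.44. The Fr2 arrays differed by more than the means of the fractions, and Fr2 minus Fr3 was −0.03 ± 0.84 (95% interval −2.02 to 1.96, adjusted p = 0.992). Without the first Fr2 array that value was 1.14 and without the second −1.20.

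Cx3cr1 encodes the receptor for fractalkine, the membrane-bound chemokine CX3CL1. Its brighter probe (chromosome 9, 119957811 to 119957870) was at 5.62 and 5.17 in Fr1, 7.24 and 4.52 in Fr2 and 4.23 and 4.17 in Fr3. The Fr3 arrays were the lowest and nearly equal, and the Fr2 arrays held both the highest level and the lowest outside Fr3. The level in Fr1 was 2.30 times that in Fr3 (log2 difference 1.20 ± 0.92, 95% interval −0.98 to 3.38, adjusted p = 0.710). Fr2 minus Fr3 was 1.68 ± 0.92 (95% interval −0.50 to 3.86, adjusted p = 0.585), but 0.32 without the first Fr2 array and 3.04 without the second. Fr1 minus Fr2 was −0.48 ± 0.92 (95% interval −2.66 to 1.70, adjusted p = 0.901) and turned to 0.88 without the first Fr2 array. The macrophage markers split the Fr2 arrays in the same direction, with means over 12 genes of 2.72 on the first and 1.32 on the second. The 7 markers of nonclassical monocytes, a CX3CR1-high cell type, split by less, at 2.67 and 2.05. The part of these cells in the Cx3cr1 levels was not tested.

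This probe also holds AATAAA, as the stretch from its base 27 to 56 shows.
Cx3cr1 probe at base 3683, in part (chr9:119957815-119957844, minus strand): tgtaattctgtcAATAAAcattggtttcct
The other Cx3cr1 probe (chromosome 9, 119959018 to 119959077, base 2476 of the transcript) was left out of the test as dim. It was well above background on 2 arrays, the second of Fr1 and the first of Fr2, at −1.31 and 0.20. On the other arrays it lay between −4.70 and −2.04. The first Fr2 array was thus the highest for both probes.

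Cxcr3 encodes the receptor for CXCL9 and CXCL10, known from activated T and NK cells. Its probe (chromosome X, 98926920 to 98926979) was well above background on the first Fr1 array alone, at −0.65. The other levels were −3.74 in Fr1, −4.63 and −3.88 in Fr2 and −2.32 and −3.88 in Fr3. It failed the filter on dim probes and had no test. With only 1 of the 2 Fr1 arrays above background, the Fr1 mean was not measured, so no fold over Fr2 or Fr3 could be given.

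T and NK cell genes were measured in all fractions. The 11 of 15 with a kept probe averaged 1.11 and 1.33 in Fr1, −0.38 and 0.20 in Fr2 and −0.13 and −0.15 in Fr3. The granzyme gene Gzma was at 3.48 and 2.97 in Fr1, −0.60 and 0.14 in Fr2 and −0.93 and −0.59 in Fr3. Of the genes of the T cell receptor complex, Cd3e lay between 0.12 and 1.26 on all arrays, and Cd3d and Cd3g did not pass the filter. At an unadjusted p under 0.05, 4 of the 11 were higher in Fr1 than in Fr2 and 0 lower, against 3.18% and 6.86% of all probes, and none passed over all probes. The 4 include Gzmb, another granzyme gene, which passed the filter through Fr1 alone, so these counts are a description. The part of T and NK cells in the Cxcr3 level was not tested.

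Side by side, the 6 tested receptors fell into 2 descriptive arrangements. Cxcr4, Cxcr2, Ccr6 and Cx3cr1 were lowest in Fr3, with both Fr1 arrays above both Fr3 arrays. Ccr2 and Ccr1 were lowest in Fr1. Cxcr4 stands here and in the counts below by its brighter probe, whereas the fractions overlapped for its dimmer probe. Over all kept probes, 13.8% did not overlap with Fr1 above Fr3 and 22.6% did not overlap with Fr3 above Fr1. Between Fr1 and Fr2, 1 of the 6 (Cxcr4) lay wholly above in Fr1, where 21.8% of probes did, and 3 (Ccr1, Ccr2 and Cxcr2) wholly below, where 23.3% did. Between Fr2 and Fr3, 4 lay wholly above in Fr2, against 20.0% of probes, and 0 wholly below, against 22.6%. The median log2 difference of the 6 was 1.5 for Fr1 minus Fr3, −1.04 for Fr1 minus Fr2 and 1.76 for Fr2 minus Fr3, where all probes had medians of −0.07, 0.01 and −0.07. The genes were chosen with results of these data known, and Ccr6 passed the filter through the fractions where it was bright, so these counts are a description only.

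**Figure D3:**
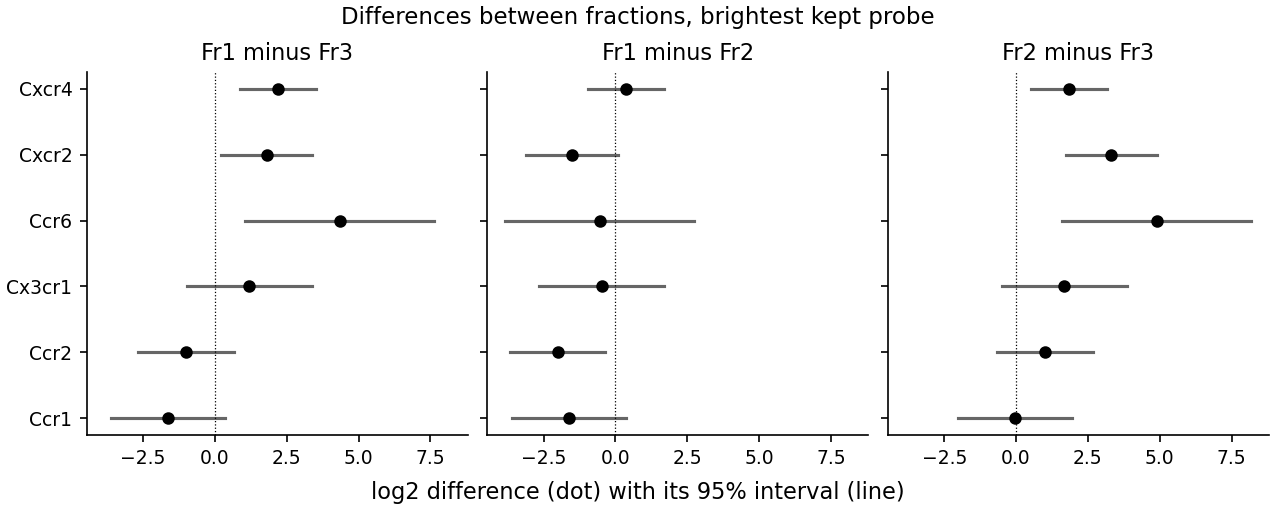
Log2 difference between fractions for the brightest kept probe of each receptor (dots) with its 95% interval (lines). The intervals of Cxcr4, Cxcr2 and Ccr6 lie above 0 for Fr1 minus Fr3 and Fr2 minus Fr3, and that of Ccr2 lies below 0 for Fr1 minus Fr2, although no adjusted p was under 0.05.

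**Figure D4:**
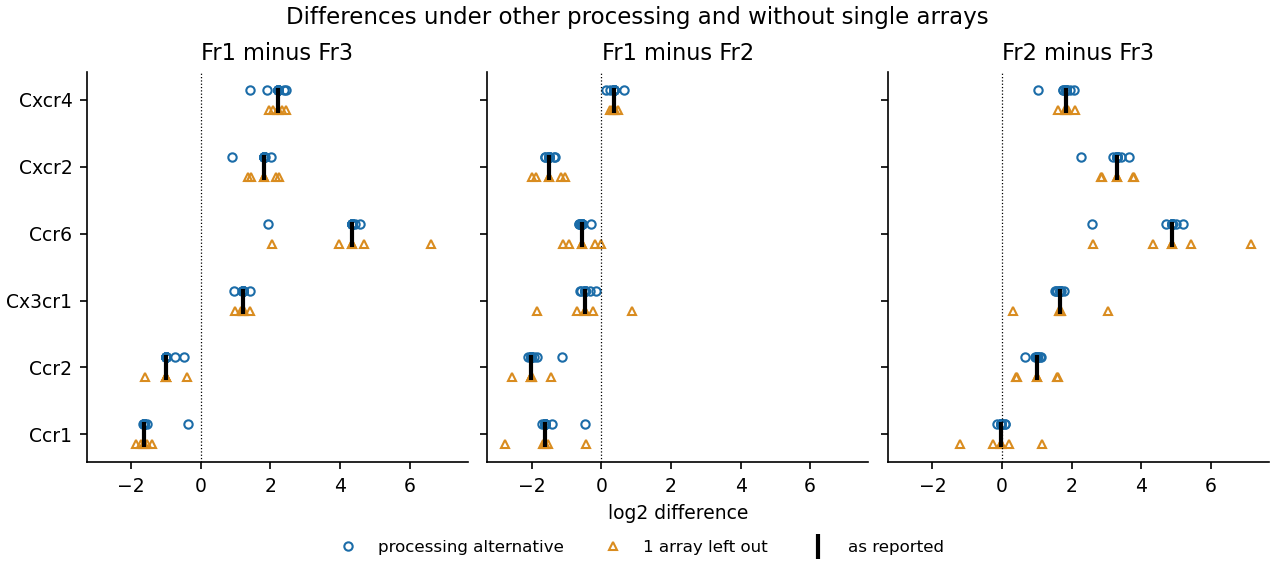
Log2 difference of each receptor between fractions as reported (black lines), under each processing alternative (circles) and without each array (triangles). The values of Ccr1 for Fr2 minus Fr3 lie on both sides of 0, between −1.20 and 1.14, and without the first Fr3 array Ccr6 for Fr1 minus Fr3 lies at 2.06. The triangles of Ccr6 farthest to the right set an Fr3 array that was not well above background alone against the other fraction and are no measured size.

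Unadjusted p-values under 0.05 were found between Fr1 and Fr3 for 3 of the 6 receptors (8.72% of all probes), Cxcr4, Cxcr2 and Ccr6. These 3 were higher in Fr1 and 0 lower, against 2.90% and 5.82% of all probes. The same 3 genes had such values between Fr2 and Fr3 (9.67% of all probes), with 3 higher in Fr2 (5.34%) and 0 lower (4.33%). Between Fr1 and Fr2 this held for 1 of the 6, Ccr2, which was lower in Fr1 (6.86%), and 0 were higher (3.18%). Both Fr3 comparisons share the Fr3 arrays and are not independent of each other. Cxcr4 counts here by its brighter probe. Its dimmer probe had an unadjusted limma p of 0.404 for Fr1 minus Fr3 and 0.727 for Fr2 minus Fr3. Because Ccr6 passed the filter through the fractions where it was bright, these counts are a description.

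Of 17 other chemokine receptor genes, 10 had a kept probe and 0 passed over all probes. Their median log2 difference was 1.78 for Fr1 minus Fr3, 0.38 for Fr1 minus Fr2 and 1.30 for Fr2 minus Fr3. Of these, 4 were higher in Fr1 than in Fr3 at an unadjusted p under 0.05, and 0 lower, against 2.90% and 5.82% of all probes. In 7 of the 10 both Fr1 arrays lay above both Fr3 arrays (13.8% of all probes) and in 0 below (22.6%). These counts include Ccr9, which passed the filter through Fr1 alone, and are a description. Ccr3, the eotaxin receptor gene of eosinophils, was at 1.43 and 2.11 in Fr1, 1.82 and 3.31 in Fr2 and −3.69 and −1.62 in Fr3 (Fr2 minus Fr3 5.22 ± 0.89, adjusted p = 0.133), with the first Fr3 array not well above background. Ccrl2, an atypical receptor gene that binds chemerin, was at 3.62 and 3.72 in Fr1, 3.79 and 4.03 in Fr2 and 1.65 and 2.41 in Fr3. As for the brighter Cxcr4 probe, all arrays of Fr1 and Fr2 lay above both Fr3 arrays, but here both Fr1 arrays lay below both Fr2 arrays. Ccr9, the receptor gene for CCL25, was at 1.66 and 1.45 in Fr1, while no Fr2 or Fr3 array had it well above background.

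**Figure D5:**
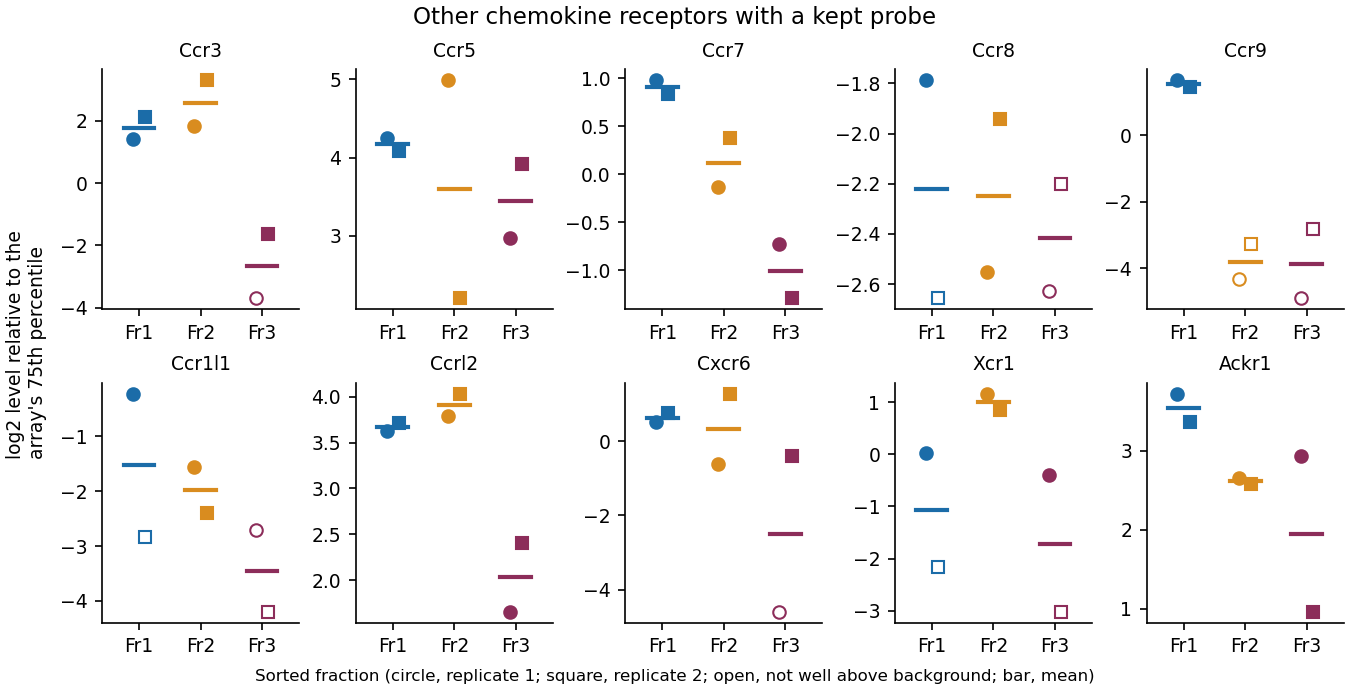
Level of the 10 other chemokine receptor genes with a kept probe on each array (log2, 75th percentile of the array at 0; circles, replicate 1; squares, replicate 2; open symbols, not well above background; bars, means; each panel has its own scale). Ccr3 and Ccrl2 lie lowest on both Fr3 arrays, and Ccr9 is well above background in Fr1 only.

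Ligand genes were mixed. Of 20 ligands of the receptors above, 19 had a kept probe and 0 passed over all probes, with median differences of −0.43 for Fr1 minus Fr3, 0.14 for Fr1 minus Fr2 and −0.08 for Fr2 minus Fr3. At an unadjusted p under 0.05, 3 of the 19 were higher in Fr1 than in Fr3 and 5 lower, against 2.90% and 5.82% of all probes. The 5 include Ccl7 and Ccl8, which passed the filter through fractions other than Fr1, so these counts are a description. Ccl7, a ligand of CCR1 and CCR2, was not well above background in Fr1 and lay at −0.18 and −1.88 in Fr2 and 3.74 and 2.72 in Fr3 (Fr2 minus Fr3 −4.26 ± 0.78, adjusted p = 0.146). Ccl9, a ligand of CCR1, was at 4.74 and 3.98 in Fr1, 6.28 and 6.81 in Fr2 and 7.21 and 7.31 in Fr3 (Fr1 minus Fr3 −2.90 ± 0.59, adjusted p = 0.222). Ccl8, a monocyte chemoattractant gene, was at background in Fr1 and lay at −1.93 and −2.20 in Fr2 and 1.86 and 0.92 in Fr3.

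Downstream of the receptors, 24 of 25 signalling genes had a kept probe and 0 passed over all probes. Their median differences were −0.14 for Fr1 minus Fr3, −0.69 for Fr1 minus Fr2 and 0.77 for Fr2 minus Fr3. Unadjusted p-values were under 0.05 for 3 of the 24 between Fr1 and Fr3 (8.72% of all probes), of which 2 were higher in Fr1 (2.90%) and 1 lower (5.82%). The lower gene was Pik3r5, which passed the filter through fractions other than Fr1, so these counts are a description. Rgs1, which encodes a GTPase activator that dampens chemokine receptor signals, was at 7.32 and 7.25 in Fr1, 7.16 and 6.91 in Fr2 and 3.63 and 4.74 in Fr3. All arrays of Fr1 and Fr2 lay above both Fr3 arrays (Fr1 minus Fr3 3.10 ± 0.62, adjusted p = 0.221). Plcb2, a phospholipase gene acted on by G proteins, was at 3.38 and 3.65 in Fr1, 4.52 and 3.16 in Fr2 and −0.12 and 0.99 in Fr3. Rgs2, a related regulator, was at 4.92 and 5.05 in Fr1, 6.96 and 6.91 in Fr2 and 4.58 and 4.13 in Fr3, the order seen for Cxcr2.

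For each tested receptor, the genes with the most similar levels over the 6 arrays were sought among 4541 named genes whose levels varied by an SD of at least 1. Between 6 and 26 genes per receptor reached r of 0.95. Cxcr2 was most like Clec7a (r = 0.997), the dectin-1 gene, and Cebpe (r = 0.996), which encodes a granulocyte transcription factor. Clec7a was at 1.83 and 2.6 in Fr1, 3.38 and 4.36 in Fr2 and 1.11 and 0.34 in Fr3. Cxcr4 was most like Serpinb2 (r = 0.990), a plasminogen activator inhibitor gene, and Adamdec1 (r = 0.981). Cx3cr1 was most like Tgfbr1 (r = 0.994), the type I TGF-beta receptor gene, which also split the Fr2 arrays at 5.20 and 2.31, and Fbxl21 (r = 0.981). The nearest to Ccr6 were Pwp2 (r = 0.993) and Grap2 (r = 0.987), to Ccr2 Dcaf10 (r = 0.984) and Commd10 (r = 0.981), and to Ccr1 Krt26 (r = 0.988) and Vti1a (r = 0.978). Several of these genes were not measured on part of the arrays. Dcaf10, Commd10 and Krt26 lay below every level well above background on both Fr1 arrays. Grap2 did so on both Fr3 arrays, and Pwp2 on all arrays of Fr1 and Fr3. Vti1a, Fbxl21, Serpinb2 and Adamdec1 did so on at least 1 array. Their r values rest in part on background. All these correlations rest on 6 arrays of 3 groups and carry no test.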

How the data were processed

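The deposited scanner files hold spot intensity values, with detrending and surrogates for dim spots on and local background correction off, per the file headers (Agilent Feature Extraction 11.5.1.1). RNA was amplified before Cy3 labelling, per the labels' protocols. A deposited table of log2 values by the authors (medians −2.44 to −2.25, 75th percentile at 0) correlated with the scanner values at r of 0.9999 or more and served as an alternative. Coordinates are those of the files (mm9), which do not give exon or UTR.

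Spots of a probe were averaged on the log2 scale (4 probes with an outlier flag left out), and the 75th percentile over non-control probes was subtracted per array. The 27867 kept probes were fitted with limma 3.58.1 (R 4.3.3, Python 3.11.15) as 3 group means, and p-values, two-sided, were adjusted by Benjamini-Hochberg over all of them. An exact permutation of 2 against 2 arrays cannot go below p = 0.3333. A gene stands by its brightest kept probe. RefSeq names were matched by accession for 32994 probes, by symbol for 10224 and by synonym for 520; 12867 kept the file's name. The fit was tested on simulated data.

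Named genes were the receptors, the sort antigens, up to 3 genes per list with the smallest F-test p and the 2 most correlated genes per receptor; other genes are defining markers or were named after their values were seen. Receptors, lists and rules were chosen with earlier results of these data known.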

Additional observations from a re-analysis of the deposited data

How the results depend on the processing

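The 18 receptor differences (6 genes, 3 comparisons) were recomputed under other background correction, scaling, filters, probe summaries, variance model, T-share corrections, the shared slide alone, the replicate block and without each array. The filters, the brightest probe per gene, the variance model, the replicate block and the shared slide leave a difference unchanged by construction. So does leaving out an array of the fraction not compared, and so does the mean of kept probes for every gene but Cxcr4. For these settings only the spread and the adjusted p could move. The authors' table comes from the same arrays at the same percentile scaling and gave nearly the same differences. Of 321 values, which count these settings too, 316 kept their direction and 0 passed the threshold. The other 5 turned sign. For Ccr1, Fr2 minus Fr3, which was −0.03, these were 0.087 with normexp, 0.078 with median centring, 1.14 without the first Fr2 array and 0.19 without the first Fr3 array. For Cx3cr1, Fr1 minus Fr2, it was 0.88 without the first Fr2 array. The number of receptors called was 0 in all comparisons and settings. Without each array in turn, Ccr1, Fr2 minus Fr3, ran between −1.20 and 1.14, and Cx3cr1, Fr1 minus Fr2, between −1.84 and 0.88. Leaving out probes over 30% T removed the Ccr1 and Cx3cr1 probes, asking for signal on all 6 arrays removed Ccr6, and the shared slide gave Fr1 minus Fr3 only. Deviations of same-numbered arrays correlated at r of 0.396 (Fr1 and Fr3), 0.0988 (Fr1 and Fr2) and 0.0276 (Fr2 and Fr3). The main fit had no pairing because nothing in the labels says that a replicate number joins sorts of different fractions. A block of the replicate number cannot move a difference here, as each fraction has both numbers. With that block Cxcr4, Fr1 minus Fr3, was thus 2.20 again (limma adjusted p = 0.292). No receptor passed with it, and the probes called between Fr2 and Fr3 were 0. The probes called over all genes did move. Between Fr1 and Fr3 (0 in the analysis reported), they were 1 with signal on all 6 arrays, 1 with the brightest probe and 1 with the mean of kept probes per gene, 17 with an intensity trend and 10 without probes over 30% T. Between Fr1 and Fr2 (0), they were 1 with an intensity trend and 1 without probes over 30% T, and 0 without any single array. Between Fr2 and Fr3 (1), they were 16 with normexp, 0 with quantile normalization, median centring or no filter, 11 with signal on all 6 arrays, 15 with an intensity trend and 58 without probes over 30% T. Without single arrays the counts ran between 0 and 1333 for Fr1 minus Fr3 and between 0 and 688 for Fr2 minus Fr3, the high ends being without the first Fr3 array, which leaves Fr3 with 1 array assumed to vary like the other fractions. The causes were not tested. Signal over background limits Ccr6, Cxcr3 and the dim Cx3cr1 probe, and 2 arrays per fraction limit the precision of all.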

Other observations

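The remaining marker lists are given as values; no gene of them passed limma's test over all probes. The macrophage markers, 12 of 13 with a kept probe, averaged 0.95 and 1.01 in Fr1, 2.72 and 1.32 in Fr2 and 4.16 and 3.77 in Fr3. Of these, 0 were higher in Fr1 than in Fr3 at an unadjusted p under 0.05 and 7 lower, against 2.90% and 5.82% of all probes. The 12 include Mrc1 and Adgre1, the genes of 2 antigens by which the fractions were sorted, so the sort fixed part of this count. Mrc1 and Lyve1 were at background in Fr1 and passed the filter through other fractions. These counts are therefore a description. Lyve1, a hyaluronan receptor gene of resident macrophages, was at background in Fr1 and at 3.69 and 2.23 in Fr3. Folr2, a folate receptor gene, was at −1.41 and −1.53 in Fr1, −0.65 and −1.96 in Fr2 and 4.22 and 3.43 in Fr3. The 9 of 10 dendritic cell markers averaged 1.84 and 1.68 in Fr1, 1.36 and 1.34 in Fr2 and 0.55 and 0.40 in Fr3. The 9 include Itgax, the gene of a sort antigen, so the sort may bear on these means. Clec9a, a receptor gene of cross-presenting dendritic cells, was at −0.89 and 0.04 in Fr1, while both Fr3 arrays were at background, and Batf3 was not well above background on any array. Among eosinophil genes, Siglecf was at 2.98 and 3.45 in Fr1, 5.31 and 6.24 in Fr2 and −0.27 and −0.32 in Fr3.

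The 6 plasmacytoid dendritic cell markers averaged 1.87 and 1.37 in Fr1, −0.05 and −0.02 in Fr2 and 0.37 and 0.44 in Fr3. The 2 Langerhans cell markers averaged 0.58 and 0.35 in Fr1, −0.43 and −1.18 in Fr2 and −1.85 and −0.94 in Fr3. The 3 of 6 B and plasma cell markers kept averaged 2.16 and 2.22 in Fr1, 0.87 and 1.94 in Fr2 and 1.38 and 0.42 in Fr3. The 7 nonclassical monocyte markers averaged 2.13 and 2.77 in Fr1, 2.67 and 2.05 in Fr2 and 1.59 and 1.27 in Fr3. Of 6 mast cell and basophil markers, Kit alone was kept, while Cpa3 was not well above background on any array. The 3 of 6 epithelial markers kept averaged −2.56 and −2.28 in Fr1, −1.74 and −1.93 in Fr2 and −1.46 and −1.63 in Fr3. The 4 of 6 fibroblast and endothelial markers kept averaged −1.71 and −1.91 in Fr1, 0.11 and −0.74 in Fr2 and −0.97 and −2.38 in Fr3.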
